A study of Homo sapiens with 6 samples.

Results

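HOX cluster genes are the protein-coding genes of the HOXA, HOXB, HOXC and HOXD clusters, and they were taken as all protein-coding rows of the deposited table whose symbol is HOX followed by a cluster letter and a number. There were 39 of them among 60623 genes, 11 in HOXA, 10 in HOXB, 9 in HOXC and 9 in HOXD, and 38 of them are described, with 10 in HOXA. The cells were PLC/PRF/5, a long-established line from a human liver tumour, given a lentiviral vector before their RNA was sequenced. ZFP64-OE is the label of 3 libraries, for a vector overexpressing the zinc finger transcription factor ZFP64, and control is the label of the other 3, for a control vector. The labels give no time after delivery and do not say whether the cells were a clone, a pool or separate cultures. The p-values therefore measure the spread between these libraries, which may be technical.

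The measured ZFP64 level went against the labels. ZFP64 had 34.1 ± 2.24 CPM (counts scaled to a common library total, adjusted between libraries by the TMM method) under the ZFP64-OE label and 147 ± 11.8 CPM under the control label (SD, n = 3 each), which is 4.31-fold lower under the overexpression label. Every direction below is therefore one between libraries as labelled. The libraries held 35109227 to 39739674 counts under the ZFP64-OE label and 26468949 to 37466920 under the control label. Of 9 hepatocyte markers, 8 were expressed highly enough to test, and HNF4A, a defining hepatocyte transcription factor, stood at 307 ± 9.93 CPM under the ZFP64-OE label and 315 ± 22.2 CPM under the control label. TTR, the liver transthyretin gene, had at most 3 counts in any library. Of the 8, ALB, AFP and APOB passed the test used below as higher under the ZFP64-OE label and APOA1 and SERPINA1 as lower. Over all tested genes, 5.81% passed it. ALB, the albumin gene, had 78.9 ± 7.71 CPM under the ZFP64-OE label and 42.0 ± 4.48 CPM under the control label, and the part of these shifts in the HOX results was not tested.

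HOX genes encode homeodomain transcription factors that give cells their position along the body axis. Within a cluster the genes lie in the order in which they are used from head to tail, and genes with the same number in different clusters are paralogues. HOX proteins bind DNA together with PBX and MEIS cofactors. Retinoic acid and CDX factors switch clusters on in the embryo, while MLL (trithorax) complexes keep them active and Polycomb complexes keep them silent.

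The homeobox, the 180 coding bases of the homeodomain, is the feature that the 38 genes share. It is printed for HOXA13, which passed the test described further on, and for HOXB13 and HOXC13, the expressed paralogues of HOXA13. The sequences were read from GENCODE v29 transcripts on GRCh38, 5′ to 3′ on the coding strand. The 18 bases in capitals encode the invariant stretch of the third helix, which lies in the major groove of DNA.

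HOXA13 homeobox: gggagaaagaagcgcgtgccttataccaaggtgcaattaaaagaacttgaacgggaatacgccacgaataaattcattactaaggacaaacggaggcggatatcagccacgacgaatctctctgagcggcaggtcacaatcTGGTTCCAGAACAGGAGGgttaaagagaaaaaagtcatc
HOXB13 homeobox: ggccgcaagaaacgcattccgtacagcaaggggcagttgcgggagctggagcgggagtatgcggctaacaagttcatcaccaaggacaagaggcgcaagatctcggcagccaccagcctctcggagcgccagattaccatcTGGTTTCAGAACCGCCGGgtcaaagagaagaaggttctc
HOXC13 homeobox: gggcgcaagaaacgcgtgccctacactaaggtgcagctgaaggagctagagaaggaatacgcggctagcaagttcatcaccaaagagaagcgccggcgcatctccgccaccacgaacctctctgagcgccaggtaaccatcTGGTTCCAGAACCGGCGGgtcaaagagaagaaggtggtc

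HOXA13 shared 76.1% of homeobox bases with HOXC13 and 69.4% with HOXB13. Over all 40 pairs of paralogues the median was 81.7%, against 61.1% for 162 pairs within a cluster. Outside and inside the homeobox, the longest run of identical coding bases that HOXA13 had with any other member was 21, and for HOXB13 and HOXC13 it was 20. The longest over all 703 pairs was 62 bases, between HOXB3 and HOXD3. Reads of HOXA13 thus had little identical coding sequence to be assigned to in another member. Assignment may be less certain for reads that lie within longer runs, such as the 51 bases of HOXB6 and HOXB7 of the same cluster. Untranslated bases were not compared.

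Promoter windows of 300 bases, from 250 before to 50 after a gene's start, were available from RefSeq (GRCh38.p14) for 20 of the 38 genes. The HOXA13 window is shown because HOXA13 had the largest change among the tested members described. The window of HOXC4 is shown because HOXC5 has the same one, while their counts differ. CpG dinucleotides are in capitals.

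HOXA13 promoter, chr7:27200042-27200341, minus strand: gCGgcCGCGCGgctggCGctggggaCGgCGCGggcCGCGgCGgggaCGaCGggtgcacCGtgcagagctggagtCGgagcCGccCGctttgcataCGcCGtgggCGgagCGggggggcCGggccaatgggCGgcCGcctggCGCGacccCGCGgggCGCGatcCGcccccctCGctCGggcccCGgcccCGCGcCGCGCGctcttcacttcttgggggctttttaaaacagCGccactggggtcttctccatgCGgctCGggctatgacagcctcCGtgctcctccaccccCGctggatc
HOXC4 and HOXC5 promoter, chr12:54016638-54016937, plus strand: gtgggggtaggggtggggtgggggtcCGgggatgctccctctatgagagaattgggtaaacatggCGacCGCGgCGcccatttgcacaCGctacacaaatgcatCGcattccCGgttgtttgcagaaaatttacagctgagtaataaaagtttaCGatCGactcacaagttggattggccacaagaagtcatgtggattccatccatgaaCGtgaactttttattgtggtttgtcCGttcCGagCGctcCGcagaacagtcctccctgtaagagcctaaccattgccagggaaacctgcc

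The HOXA13 window held 44 CpGs and 76.3% G or C, and 95.8% of the 35116 promoter windows in the table held fewer CpGs. On either strand it held 4 GC boxes (GGGCGG, found in 45.0% of all windows), 1 CCAAT box (CCAAT, 34.6%) and no TATA box (TATAAA, 11.5%). The HOXC4 and HOXC5 window held 15 CpGs, 2 CCAAT boxes, no GC box and no TATA box. HOXC4 had 358 counts over the 6 libraries and HOXC5 had 8, so the level of the pair differed although RefSeq gives them the same start. GENCODE v29 starts HOXC5 at position 54032853. Of the exonic bases of HOXC5, 59.9% also belong to other gene entries on the same strand. These include another entry named HOXC5, so its count is uncertain. The 27 HOX windows, more than 1 for some of the 20 genes, had a median of 22 CpGs, against 14 for all windows. The median was 18 for the 14 windows of 7 tested genes and 23 for the 13 windows of 13 untested genes. Many of the 14 windows belong to HOXA3, with 0 to 29 CpGs each, and none to HOXB. These medians therefore do not compare tested with untested genes.

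PLC/PRF/5 cells expressed HOXA, HOXB and HOXC genes and had almost no counts for HOXD genes. Levels are given in FPKM, fragments scaled by gene length and by library total, which can be compared between genes. The 10 HOXA members described summed to 5.31 ± 0.250 FPKM under the ZFP64-OE label and 5.37 ± 0.242 FPKM under the control label (SD, n = 3 each). The summed HOXB level was 5.32 ± 0.529 FPKM under the ZFP64-OE label and 5.59 ± 0.398 FPKM under the control label (SD, n = 3 each). The summed HOXC level was 17.0 ± 1.25 FPKM under the ZFP64-OE label and 18.0 ± 0.538 FPKM under the control label. Each of these 3 sums differed between the labels by less than the larger SD of its groups. In a bulk sample, fewer cells with a transcript and less transcript per cell cannot be told apart.

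The HOXD cluster, which lies at chr2:176092891-176190907, had 12 counts in all 6 libraries together, out of 208566411. HOXD3, HOXD8, HOXD11 and HOXD12 had 0 counts, as did HOXB1. A count of 0 allows a level of up to 0.0144 CPM over the 6 libraries, taken as 3 counts of the total and covering counting error only. HOXD9, which had 7 counts, was the highest of the cluster. Another entry on the same strand shares 62.2% of the exonic bases of HOXD3 and 80.5% of those of HOXD4. Of HOXD1, 58.1% lies opposite antisense genes, so the counts of these genes are uncertain. HOXD8, HOXD9, HOXD12 and HOXD13 share no exonic base with another entry.

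Expression in the other 3 clusters had gaps. In HOXA, whose described members lie in chr7:27100354-27200106, the genes HOXA2 to HOXA6, HOXA10 and HOXA13 were expressed highly enough to test, while HOXA7 had 4 counts over the 6 libraries, HOXA9 25 and HOXA11 7. HOXA7 is uncertain, since 62.5% of its exonic bases lie opposite the antisense gene HOXA-AS3. In HOXB (chr17:48528526-48729178) the genes HOXB3 to HOXB7, HOXB9 and HOXB13 were tested, while HOXB2 had 10 counts and HOXB8 29. In HOXC (chr12:53938765-54056030) every gene but HOXC5, with 8 counts, and HOXC11, with 2, was tested. Expressed genes and genes near 0 therefore alternated along each of these clusters, and expression was not limited to the head or the tail end. Of the 13 paralogue groups, group 6 had all its members tested, group 13 had 3 of 4 (HOXA13, HOXB13 and HOXC13), and group 11 had none of 3.

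Of the members described, 21 had enough counts for a test and 17 did not. The tested members had at least 83 counts over the 6 libraries and the untested ones at most 29. The filter asks for about 10 counts, scaled for library size, in at least 3 of the 6 libraries. No direction was read for a member that missed it.

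**Figure D1:**
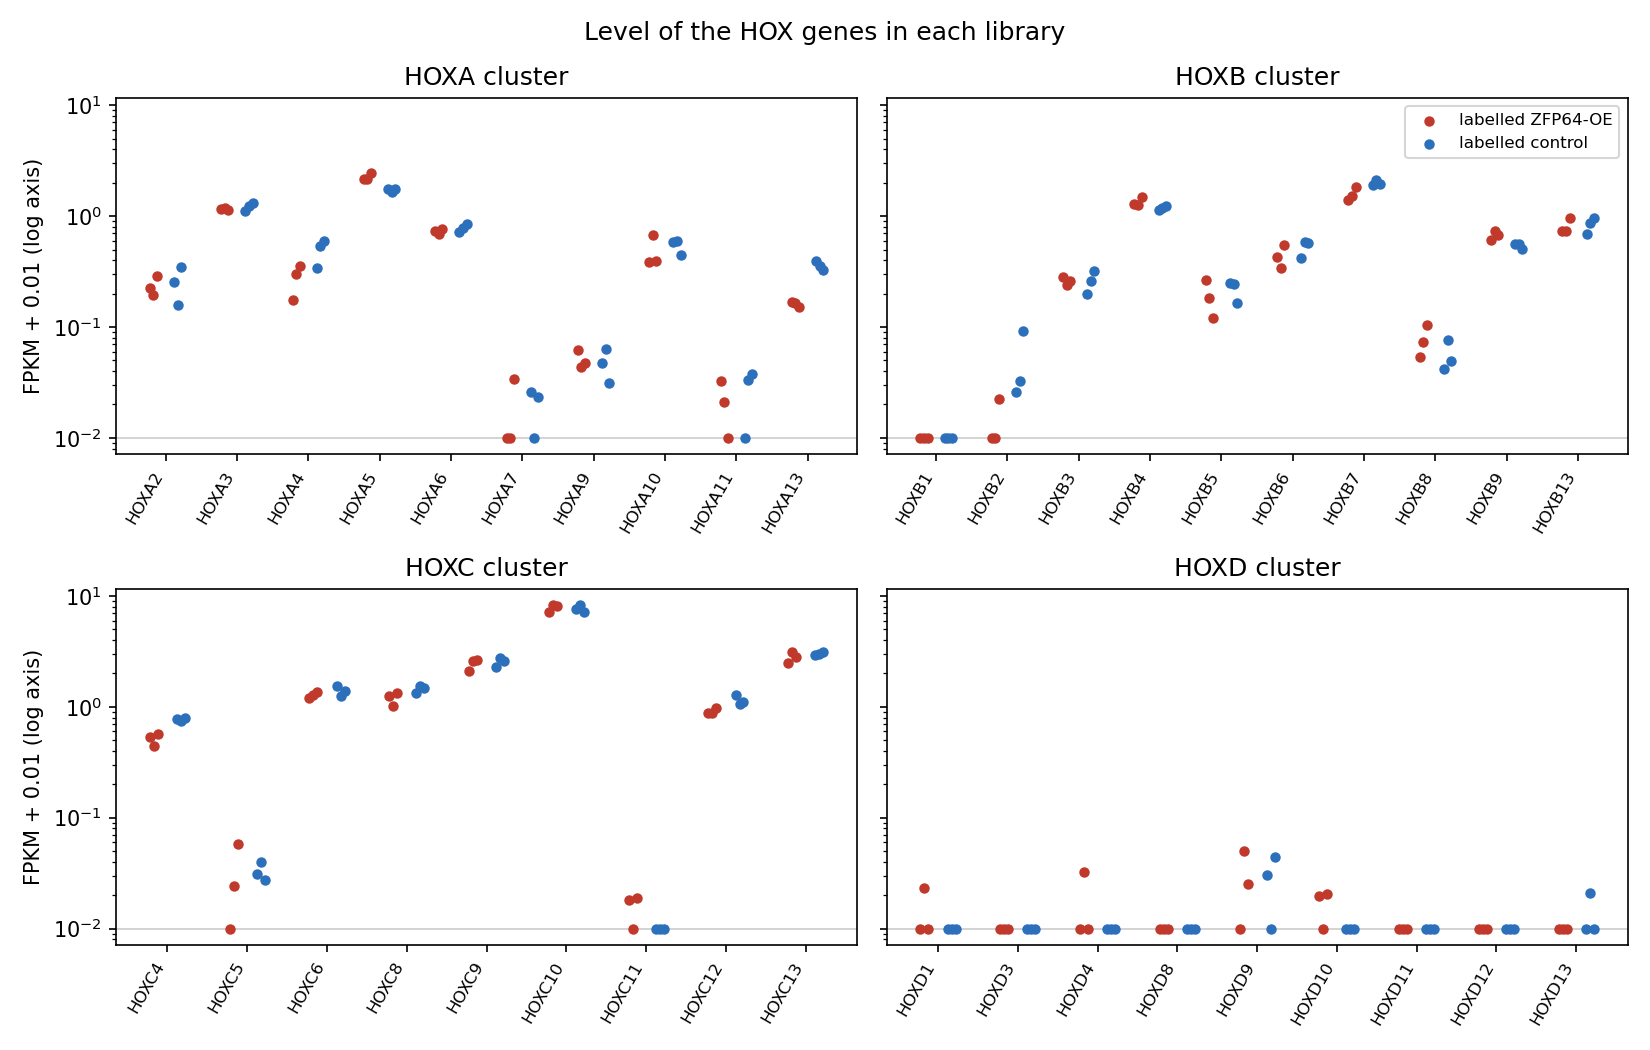
Level of each of the 38 HOX genes described in every library, by cluster and in numerical order, as FPKM plus 0.01 on a log axis, with the libraries labelled ZFP64-OE left of those labelled control. HOXC10 stands highest of these, at 7.76 FPKM on average, the line at 0.01 marks genes with 0 counts, and the HOXD panel stays near that line.

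Levels of the expressed members were uneven. HOXC10, a gene of the lumbar spinal cord and hindlimb, was the highest of those described, with 7.85 ± 0.642 FPKM under the ZFP64-OE label and 7.67 ± 0.530 FPKM under the control label. Its mean over the 6 libraries was above that of 71.3% of all tested genes, whose median was 2.63 FPKM.

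HOXC10 supplied 46.3% of the HOXC total under the ZFP64-OE label and 42.7% under the control label. Next came HOXC13, a hair and nail keratin regulator, with a mean of 2.91 FPKM over the 6 libraries. HOXC9, a thoracic spinal cord gene, had 2.49 FPKM and HOXA5, which acts in lung development, had 1.98 FPKM. Of the 21 tested members described, 10 had at least 1 FPKM on average and 11 had less. The lowest was HOXB5 at 0.195 FPKM, above 9.52% of tested genes, and HOXA13 stood at 0.250 FPKM.

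Between the libraries labelled ZFP64-OE and those labelled control, HOXA13 fell, and the other 20 tested members described did not pass the test. The quasi-likelihood test of edgeR was used, with Benjamini-Hochberg adjustment over all 19173 tested genes and a threshold of 0.05. It called 1 of the 21 HOX genes described, or 4.76%, against 5.81% of all tested genes. The direction of that call was lower, and of all tested genes 1.78% were called higher and 4.03% lower. A single call is too few to set the family apart from that background, and no test of the share was made. The median log2 fold change was -0.07 over the 21 members and -0.02 over all tested genes, and 16 of the 21 lay below 0, against 53.2% of all tested genes. With RLE scaling and with DESeq2, 16 of the 21 lay below 0 too, and 13 to 16 did without 1 library.

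HOXA13, which acts in the outer limb and the urogenital tract, had 0.827, 0.798 and 0.708 CPM under the ZFP64-OE label, against 2.04, 1.72 and 1.52 CPM under the control label. These values rest on 31, 31 and 25 counts under the ZFP64-OE label, against 52, 66 and 50 under the control label. The groups were well apart, with no library labelled ZFP64-OE above 0.827 CPM and none labelled control under 1.52 CPM. The log2 fold change was -1.16 (SE 0.234), a 2.24-fold lower level (edgeR adjusted p = 0.00357). It kept its call in 13 of 14 other settings and lost it with limma on log2(FPKM + 1), where the pseudocount exceeds the gene's own level and the adjusted p was 0.0657. HOXA13 (chr7:27193503-27200106, minus strand) shares 1.69% of its exons with the antisense gene HOTTIP, which was itself near 0 with at most 3 counts in a library.

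**Figure D2:**
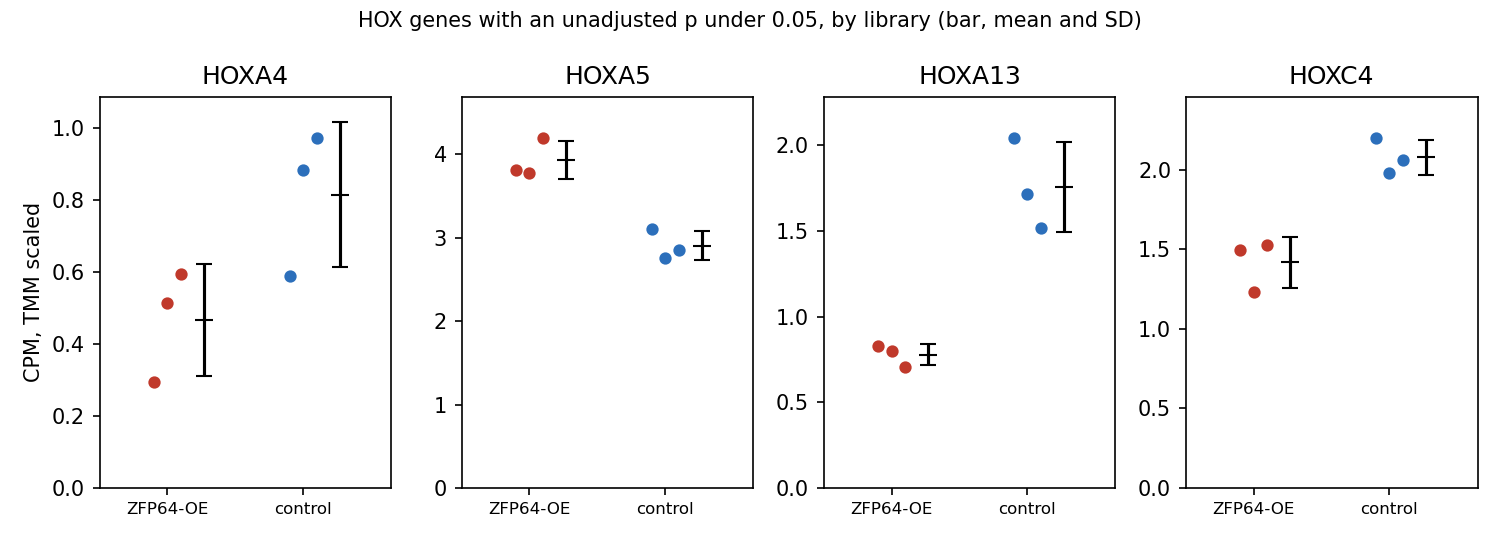
CPM in each library for the 4 tested HOX genes described with an unadjusted p under 0.05, with the libraries labelled ZFP64-OE left of those labelled control in every panel and a bar for the mean and SD of 3 libraries. HOXA5 is higher under the ZFP64-OE label and HOXA13 and HOXC4 are lower, without overlap, while the HOXA4 groups overlap slightly. Of the 4, only HOXA13 passed the adjusted threshold.

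The paralogues of HOXA13 gave other values. HOXB13, a prostate homeobox gene, had 2.59, 2.57 and 3.29 CPM under the ZFP64-OE label, against 2.43, 2.92 and 3.16 CPM under the control label, and its log2 fold change was -0.02 (95% interval -0.39 to 0.34). HOXC13 had 5.97, 7.46 and 6.60 CPM under the ZFP64-OE label, against 7.14, 6.93 and 7.02 CPM under the control label, with a log2 fold change of -0.07 (95% interval -0.33 to 0.19). For both genes the groups overlapped. Neither interval reached the change of HOXA13, but the difference between the paralogues was not tested.

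Closer to the head end of HOXA, HOXA5 and HOXA4 missed the threshold, with log2 fold changes of opposite sign. HOXA5 had 3.81, 3.78 and 4.19 CPM under the ZFP64-OE label, against 3.10, 2.76 and 2.86 CPM under the control label (log2 fold change 0.44, SE 0.154, edgeR adjusted p = 0.108), and it was called in 0 of 14 other settings. Its groups did not overlap. HOXA4, a neighbour of HOXA5, had 0.293, 0.515 and 0.595 CPM under the ZFP64-OE label, against 0.589, 0.886 and 0.972 CPM under the control label (log2 fold change -0.82, SE 0.327, edgeR adjusted p = 0.165). Its groups overlapped slightly, and 31.0% of its exonic bases also belong to another gene on the same strand, so its reads can be shared.

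HOXA3 had 5.02 ± 0.153 CPM under the ZFP64-OE label and 5.18 ± 0.196 CPM under the control label, and HOXA2, a second branchial arch gene, had 0.532 ± 0.109 CPM under the ZFP64-OE label and 0.562 ± 0.212 CPM under the control label (SD, n = 3 each). HOXA6 had 0.941 ± 0.0352 CPM under the ZFP64-OE label and 0.980 ± 0.0474 CPM under the control label. Of its exonic bases, 39.3% lie opposite the antisense gene HOXA-AS3, so its count is uncertain. HOXA10, a uterus and hindlimb gene, had 1.44, 2.55 and 1.42 CPM under the ZFP64-OE label, against 2.24, 2.14 and 1.55 CPM under the control label, so that replicate 2 labelled ZFP64-OE was the highest of all 6 libraries while the other libraries of its label were the lowest. The differences of these 4 genes did not exceed the larger SD of the groups, with log2 fold changes from -0.12 to -0.05.

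In the HOXC cluster none of 7 tested genes passed, although 6 of the 7 had a log2 fold change below 0 (median -0.09). HOXC4 was the nearest, with 1.49, 1.24 and 1.53 CPM under the ZFP64-OE label, against 2.20, 1.98 and 2.07 CPM under the control label (log2 fold change -0.55, SE 0.200, edgeR adjusted p = 0.125). Its groups did not overlap. It shares 17.8% of its exonic bases on the same strand with HOXC6 and with another GENCODE entry named HOXC5, not the HOXC5 described here. The HOXC sum was 15.5, 17.6 and 17.8 FPKM under the ZFP64-OE label, against 17.7, 18.6 and 17.6 FPKM under the control label, with overlap. Without HOXC10, the only tested HOXC gene with a log2 fold change above 0, it was 8.42, 9.29 and 9.67 FPKM under the ZFP64-OE label. Under the control label it was then 10.1, 10.4 and 10.4 FPKM, without overlap. Leaving out the gene that stood higher moves the sums towards this separation, and no test was made of them.

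HOXC12 had 2.93, 2.93 and 3.12 CPM under the ZFP64-OE label, against 4.28, 3.33 and 3.40 CPM under the control label, and HOXC8, a thoracic gene, had 3.09, 2.47 and 3.17 CPM under the ZFP64-OE label, against 3.34, 3.59 and 3.37 CPM under the control label. Both pairs of groups were separate but close, with edgeR adjusted p-values of 0.359 and 0.453. HOXC10 had 17.3, 20.1 and 19.2 CPM under the ZFP64-OE label, against 18.8, 19.0 and 16.2 CPM under the control label, with overlapping groups. Its log2 fold change of 0.07 had a 95% interval of -0.14 to 0.27, the most precise estimate among the members that did not pass. HOXC9 had 4.10 ± 0.483 CPM under the ZFP64-OE label and 4.18 ± 0.298 CPM under the control label. HOXC6 had 4.44 ± 0.204 CPM under the ZFP64-OE label and 4.75 ± 0.646 CPM under the control label. Both differences were within the spread between libraries. HOXC6 shares 15.7% of its exonic bases with other entries on the same strand.

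In the HOXB cluster none of 7 tested genes passed and none reached an unadjusted p of 0.05. HOXB7 had 2.16, 2.37 and 2.75 CPM under the ZFP64-OE label, against 2.98, 3.15 and 2.83 CPM under the control label (log2 fold change -0.30, edgeR adjusted p = 0.352). HOXB9 had 1.60, 1.93 and 1.70 CPM under the ZFP64-OE label, against 1.49, 1.38 and 1.22 CPM under the control label (log2 fold change 0.36, edgeR adjusted p = 0.371). HOXB4, a gene of blood stem cells, had 2.61, 2.57 and 2.97 CPM under the ZFP64-OE label, against 2.36, 2.32 and 2.34 CPM under the control label (log2 fold change 0.22, edgeR adjusted p = 0.532). The groups were separate for these 3 genes, and HOXB4 and HOXB9 stood higher while HOXB7 stood lower. In GENCODE v29 the HOXB7 gene (chr17:48607227-48633572) encloses HOXB9 (chr17:48621159-48626356), on the same strand and with no exonic base in common.

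HOXB3 had 1.89 ± 0.171 CPM under the ZFP64-OE label and 1.83 ± 0.383 CPM under the control label, HOXB5 had 0.373 ± 0.154 CPM under the ZFP64-OE label and 0.428 ± 0.109 CPM under the control label, and HOXB6 had 1.13 ± 0.256 CPM under the ZFP64-OE label and 1.32 ± 0.192 CPM under the control label (SD, n = 3 each). Their groups overlapped. Over the whole family, the CPM of 8 of the 21 tested members did not overlap between the groups, against 21.9% of all tested genes. Of those 8, 3 were higher in the libraries labelled ZFP64-OE (HOXA5, HOXB4 and HOXB9) and 5 lower (HOXA13, HOXB7, HOXC4, HOXC8 and HOXC12).

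**Figure D3:**
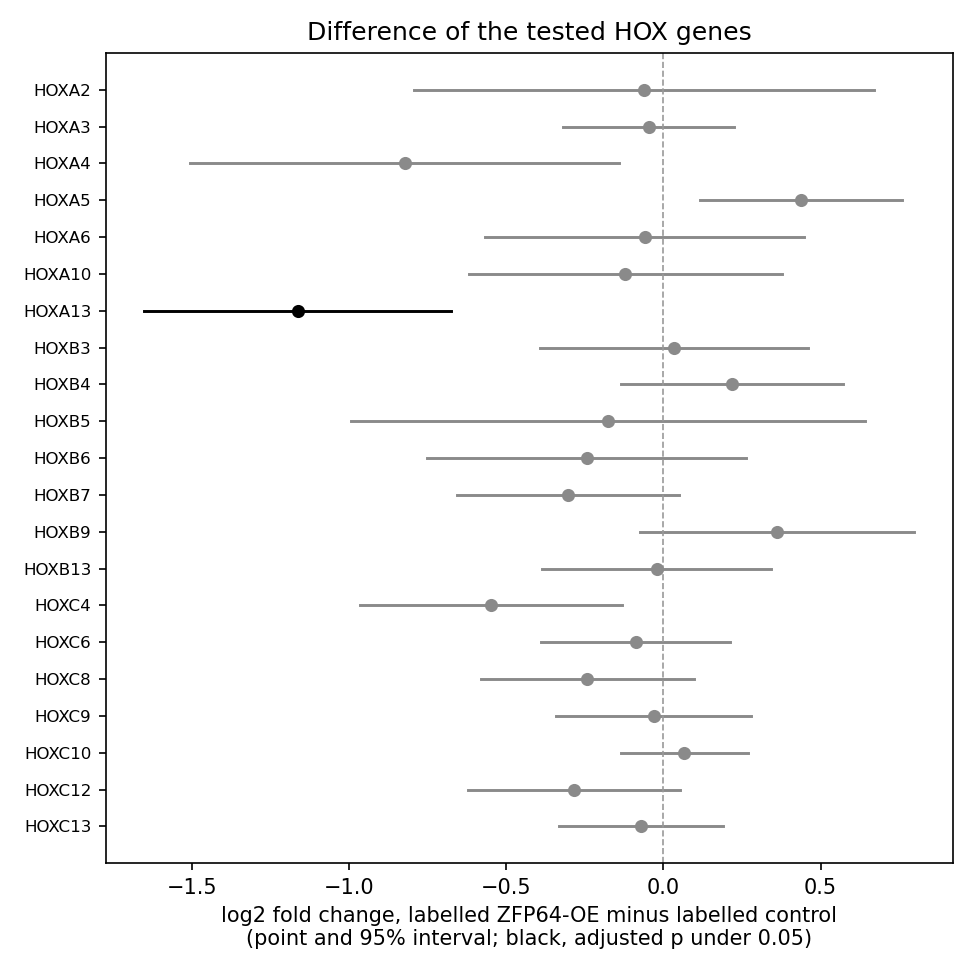
Log2 fold change of each tested HOX gene described, libraries labelled ZFP64-OE minus libraries labelled control, as a point with its 95% interval. Of the 21 genes shown only HOXA13, at -1.16, is black for an adjusted p under 0.05, and the low-count genes HOXA2, HOXA4 and HOXB5 have the widest intervals.

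For the members that did not pass, the precision set what could be seen. The standard errors of these 20 log2 fold changes ranged from 0.0967 for HOXC10 to 0.391 for HOXB5. The 95% interval lay within a 1.5-fold difference either way for 10 of them and reached beyond it for the other 10. A miss of the threshold thus does not show equal levels for either set. In the first set the interval bounds the difference only to within 1.5-fold, and for HOXB4 it reached 1.49-fold. No test of equal levels was made.

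The cofactors through which HOX proteins bind DNA were expressed except PKNOX2, which had 0 counts, and none of the 7 tested passed. PBX2, the most abundant of these, had 84.7 ± 2.11 CPM under the ZFP64-OE label and 93.2 ± 2.20 CPM under the control label. Its groups did not overlap, as in 21.9% of all tested genes (log2 fold change -0.14, edgeR adjusted p = 0.327). MEIS1, a partner of several HOXA proteins, had 3.21 ± 0.761 CPM under the ZFP64-OE label and 3.10 ± 0.188 CPM under the control label (log2 fold change 0.05, edgeR adjusted p = 0.912). None of the 7 had an unadjusted p under 0.05, and DESeq2 and limma-voom also called 0. Beside this list and those below stands the 5.81% of all tested genes that edgeR called. Counts of calls this small in short lists do not set them apart from that share, and no test of it was made.

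Of the complexes that keep HOX clusters active, 0 of 12 tested MLL and trithorax genes passed by edgeR, with 1 at an unadjusted p under 0.05, and DESeq2 and limma-voom also called 0. KMT2A, which encodes MLL itself, had 183 ± 18.9 CPM under the ZFP64-OE label and 173 ± 19.1 CPM under the control label (log2 fold change 0.09, edgeR adjusted p = 0.694). Of 19 Polycomb genes 0 passed by edgeR, 3 had an unadjusted p under 0.05, and DESeq2 and limma-voom called 0. RBBP7, a histone-binding subunit and the most abundant, had 289 ± 1.23 CPM under the ZFP64-OE label and 280 ± 15.8 CPM under the control label, and EZH2, the methyltransferase subunit, had 64.3 ± 5.00 CPM under the ZFP64-OE label and 63.1 ± 4.92 CPM under the control label.

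Among retinoic acid and CDX genes, RARB, a retinoic acid receptor and retinoic acid target, rose, and the other 6 tested did not pass. Of the 7 tested, 3 had an unadjusted edgeR p under 0.05. RARB had 19.4, 18.5 and 16.8 CPM under the ZFP64-OE label, against 14.2, 13.8 and 13.3 CPM under the control label, so its groups did not overlap. Its log2 fold change was 0.41 (SE 0.0950, edgeR adjusted p = 0.0122), and the call was lost without replicate 1 or replicate 2 labelled ZFP64-OE, without replicate 2 labelled control, and with limma on log2(FPKM + 0.1). CTCF, which insulates domains within HOX clusters and is the most abundant of the list, had 78.3 ± 1.30 CPM under the ZFP64-OE label and 72.5 ± 6.34 CPM under the control label.

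Noncoding genes within the clusters were low, and 0 of 7 tested passed by edgeR, with 1 at an unadjusted p under 0.05 and none called by DESeq2 or limma-voom. HOTAIRM1, in HOXA, was the most abundant at 7.47 ± 1.19 CPM under the ZFP64-OE label and 7.15 ± 0.748 CPM under the control label (log2 fold change 0.06). HOTAIR, the noncoding gene between HOXC11 and HOXC12, had 0 counts. No strand setting is given in the sources used here, so reads of a gene and of its antisense partner cannot be told apart.

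Of 15 tested genes flanking the clusters, SMUG1, a uracil DNA glycosylase gene near HOXC, fell to 36.5 ± 4.57 CPM under the ZFP64-OE label, against 45.6 ± 2.33 CPM under the control label (log2 fold change -0.32, edgeR adjusted p = 0.0399). DESeq2 and RLE scaling in edgeR did not call it, nor did edgeR without replicate 1 or 2 labelled ZFP64-OE or without replicate 2 or 3 labelled control. The most abundant flanking gene, HNRNPA1 next to HOXC, had 906 ± 57.2 CPM under the ZFP64-OE label and 996 ± 18.8 CPM under the control label and did not pass. Of the 15 flanking genes, 4 had an unadjusted edgeR p under 0.05. The share of all tested genes under that unadjusted cut is not given here, so it sets no list apart.

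**Figure D4:**
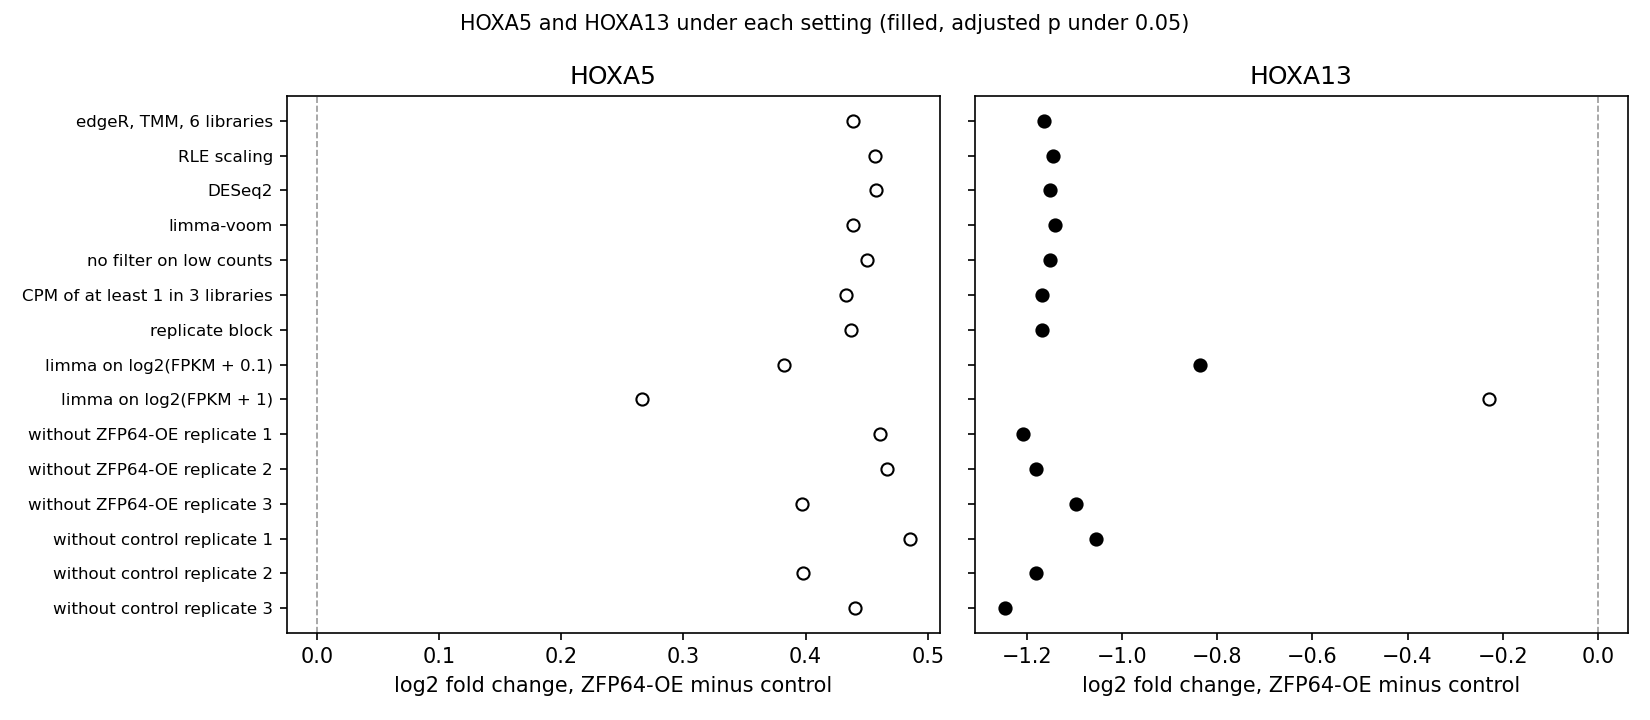
Log2 fold change of HOXA5 and HOXA13, libraries labelled ZFP64-OE minus libraries labelled control, in the reported fit and 14 other settings, with filled points for an adjusted p under 0.05. HOXA5 ranges from 0.27 to 0.49 and is filled in 0 of the 14 other settings, and HOXA13 ranges from -1.25 to -0.23 and is filled in 13.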

How the data were processed

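RNA was made into TruSeq libraries, per the labels' protocols, and the submitters' processing notes name HISAT2 and GRCh38. For versions, counting program, annotation and strand setting the sources used here give nothing. The deposited counts are raw whole numbers per Ensembl gene, and the deposited FPKM values follow from them: the ratio gave 1 gene length in all 6 libraries for 24388 of 24388 genes (relative tolerance 1e-06). Genes passing filterByExpr (minimum count 10, total 15; 19173 kept) were tested with edgeR 4.0.16 (R 4.3.3), TMM scaling (factors 0.963 to 1.05), robust quasi-likelihood F-test, on group alone. SE is the log2 fold change over the square root of F. Cluster sums of FPKM got no test. Alternatives used RLE scaling, DESeq2 1.42.0, limma-voom (limma 3.58.1), other filters, FPKM, a replicate block and left-out libraries. Code was tested on simulated counts. Replicates of a group differed beyond sampling noise (chi-square per gene 11.5 to 20.2). Positions, exon overlaps and homeoboxes came from GENCODE v29.

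The members and lists were chosen with earlier results of these data known. Named were the HOX genes, ZFP64 and, of each other list, members past the threshold and the most abundant. MEIS1, KMT2A, EZH2, HOTAIR, HOTTIP and TTR were named after their values were seen. Some genes are not reported here, and counts over the members and lists leave them out, while the fit and its adjustment run over all tested genes.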

Additional observations from a re-analysis of the deposited data

How the results depend on the processing

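The count of all genes called, 1114, was 2096 with the replicate block, 399 with limma on log2(FPKM + 0.1), 403 on log2(FPKM + 1), and 587 to 1535 without one library (673 and 735 without replicate 1 or 2 labelled ZFP64-OE, 587 without replicate 2 labelled control). The lower share of calls was 69.3%, and 80.2% on log2(FPKM + 0.1) and 58.2% without replicate 1 labelled control. HOX calls numbered 1, and 0 on log2(FPKM + 1), with 1 in each of the 13 other settings. Of the HOX regulators (trithorax, Polycomb, retinoic acid and CDX genes) 1 was called, with 3 under the block (CBX2, RARB and RARG), 0 on log2(FPKM + 0.1) and 0 to 2 without one library. Of noncoding and flanking genes 1 was called, with 0 under RLE scaling, DESeq2, and both FPKM fits, 2 under the block (HIBADH and SMUG1) and 0 to 1 without one library. No cofactor of the 7 tested was called in any of the 14 settings. The cause of these shifts was not tested.

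Log2 fold changes of HOX genes changed sign in 14 of 290 gene and setting pairs, in 8 genes, none called. Same-numbered libraries deviated together with correlations of 0.0183, 0.0198 and 0.0968, and 1 of 6 correlated best with its own number. The numbers were therefore not taken as pairs. With 3 libraries in a group this check is weak, and the block called 2096 genes instead of 1114. HOXA13 was called under the block too. With sums of CPM or without one library, the log2 ratio of the summed levels ranged from -0.07 to 0.02 for the HOXA members described (-0.02 as reported), from -0.16 to -0.0038 for HOXB (-0.07) and from -0.12 to -0.02 for HOXC (-0.08). For HOXD it ranged from -0.29 to 1.25 (0.77), on 12 counts. No test was made of these sums. Counts of 25 to 66 behind HOXA13 limit its precision, and no direction was read for the 17 members under the filter.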
